A study of Rattus norvegicus with 91 samples.

Results

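Gene expression in the ventral tegmental area was measured on 19 of the series' 91 arrays that are labelled as line pair P/NP, chosen by their titles. Of these, 9 carry the label P and the preference label Pr, and 10 carry the label NP and the preference label NPr. The ventral tegmental area is a midbrain region that holds dopamine neurons. The design text describes 5 pairs of rat lines bred selectively for high or low alcohol consumption, and P and NP are the high and the low line of their pair. Each title names an animal (P 1 to P 10 without P 6, and NP 1 to NP 10). Total RNA of 25 ng per array was amplified and labelled by the standard 2-cycle protocol for Affymetrix arrays. No age, sex or treatment of the animals is given in the sources used here, and the arrays serve below as the replicates of a label. Values are log2 signals, so a difference of 1 is a doubling.

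Dopamine neurons make dopamine from tyrosine through tyrosine hydroxylase (Th) and aromatic amino acid decarboxylase (Ddc), load it into vesicles with the transporter Slc18a2, and take it back up with the plasma membrane transporter Slc6a3. In the ventral tegmental area they lie among GABA and glutamate neurons. The red nucleus, with its large neurons rich in neurofilaments, lies nearby, so the share of dopamine neurons in a tissue sample depends on which tissue was taken. In such bulk samples, fewer cells of a type and less RNA per cell cannot be told apart.

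Th was the measure used to set P 10 and NP 8 apart, so its values are a description. In the arrays labelled P, Th was lowest in P 10 at 9.12, followed by P 8 at 11.38, and the median was 14.08 and the highest value 14.95 (n = 9). In those labelled NP it was lowest in NP 8 at 8.23, followed by NP 3 at 11.64, with a median of 13.65 and a highest value of 14.88 (n = 10). The ranges of the labels overlapped almost whole. Without P 10 and NP 8, Th still ranged from 11.38 to 14.95, so that 4 arrays, P 8, NP 3, NP 7 and NP 5, lay between 11.38 and 11.87 and 10 lay above 14. The other 8 lines of the series had Th SDs from 0.106 to 0.28 within a line, against 1.918 in P and 2.107 in NP, or 1.215 and 1.385 without both arrays.

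The same order of arrays ran through the genes that make and move dopamine, and the promoters of the 3 members that the description turns on are shown to place them in the genome. They are RefSeq sequences of the GRCr8 assembly, from 250 bases before to 50 bases after the start of the gene, on chromosome 1. Capitals mark the cyclic AMP response element TGACGTCA, searched on both strands together with TATAAA and the Nr4a2 binding motif AAAGGTCA.
Th, chr1:207508169-207508468, minus strand: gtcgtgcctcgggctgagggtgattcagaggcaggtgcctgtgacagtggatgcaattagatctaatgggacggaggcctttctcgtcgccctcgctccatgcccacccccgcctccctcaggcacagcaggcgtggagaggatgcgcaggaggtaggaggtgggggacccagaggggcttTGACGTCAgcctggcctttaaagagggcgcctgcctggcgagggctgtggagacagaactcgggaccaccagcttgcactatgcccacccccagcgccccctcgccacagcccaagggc
Slc6a3, chr1:31578913-31579212, minus strand: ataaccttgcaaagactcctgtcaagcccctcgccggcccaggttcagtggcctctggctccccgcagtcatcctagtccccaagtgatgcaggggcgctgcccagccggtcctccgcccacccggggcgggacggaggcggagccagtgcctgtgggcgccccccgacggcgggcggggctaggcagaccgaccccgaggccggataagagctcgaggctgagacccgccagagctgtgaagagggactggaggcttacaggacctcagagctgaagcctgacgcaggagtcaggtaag
Slc18a2, chr1:268399771-268400070, plus strand: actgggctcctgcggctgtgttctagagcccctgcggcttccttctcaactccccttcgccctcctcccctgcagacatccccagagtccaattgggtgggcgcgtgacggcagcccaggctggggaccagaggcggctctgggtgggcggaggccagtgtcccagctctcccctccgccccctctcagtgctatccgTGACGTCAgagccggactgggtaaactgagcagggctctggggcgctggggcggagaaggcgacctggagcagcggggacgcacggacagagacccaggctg
The response element lay at position -69 from the start in Th and at -52 in Slc18a2, and the Slc6a3 window held no match to any of the 3 motifs. Of 27457 promoter windows of the same length, 1.91% held the response element, 14.3% held TATAAA and 1.293% held AAAGGTCA. A match is a description of the letters in the window and not a site of binding.

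Several properties of the arrays bear on the labels and are given before any comparison of P with NP. In the deposited column order the labels run 19 arrays of P/NP, 20 of AA/ANA and 17 of sP/sNP. The distributions of the values change at other columns. The lowest percentile of the signals lay between 4.17 and 4.24 in the first 20 of these columns, which are the 19 arrays labelled P or NP and the array labelled AA 1 (4.17). It lay between 4.43 and 4.51 in the next 17 columns and between 4.36 and 4.38 in the last 19. The largest steps between neighbouring columns fell between AA 1 and ANA 2, at 0.291, and between ANA 18 and AA 19, at 0.118. The border between the labels P/NP and AA/ANA, from NP 10 to AA 1, was not among the 4 largest steps.

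Probe sets whose signals fall into separated levels gave a further view of the labels. Among 31042 probe sets, 55 had a gap of at least 1 log2 unit with at least 3 arrays on each side. None of these 55 divided the arrays labelled P from those labelled NP. The division found most often, in 12 probe sets, set NP 9, P 10 and NP 10 apart from the other 16 arrays, and its named genes were Spp1, Grifin, Nefh, Lgals1, Sncg, Cox8b and Smpx. The next, in 8 probe sets, put P 1 to P 5 with NP 6 to NP 10, against NP 1 to NP 5 with P 7 to P 10, which is the order in which the columns alternate. The widest gap of these was in a probe set with no gene name in the annotation, which had signals from 5.28 to 5.85 in P 1 to P 5 and from 5.54 to 5.73 in NP 6 to NP 10, against 7.92 to 8.61 in NP 1 to NP 5 and 8.29 to 8.73 in P 7 to P 10. A probe set of Trio, a guanine nucleotide exchange factor, ran from 10.18 to 10.53 on the first of these sides and from 8.5 to 9.0 on the other. A probe set of the salt-inducible kinase Sik1 ran from 6.95 to 8.74 and from 5.13 to 5.69. Whether the labels of these columns match their values was not tested, and P and NP below mean the arrays labelled so.

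**Figure D1:**
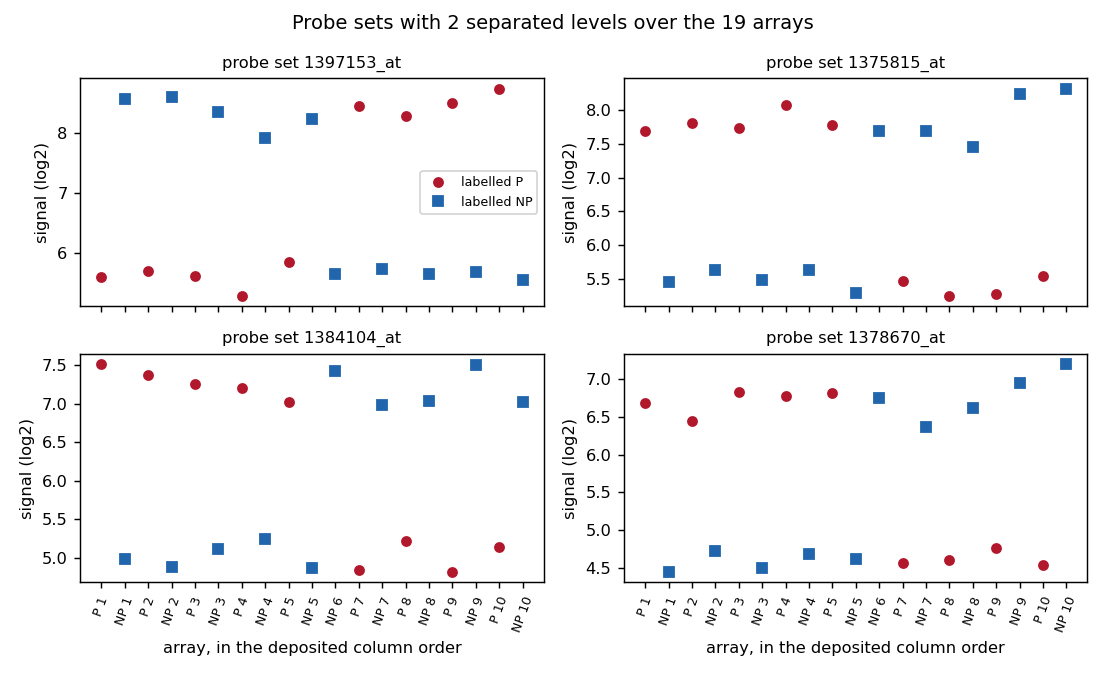
Log2 signal (y axis) of 4 probe sets without a gene name on the 19 arrays in the deposited column order (x axis), with circles for arrays labelled P and squares for arrays labelled NP. In each panel P 1 to P 5 share a level with NP 6 to NP 10, and NP 1 to NP 5 share the other level with P 7 to P 10, with a gap of 1.60 to 2.07 between the levels.

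Technical measures of the arrays were compared next. None of 5 measures, namely the median, the interquartile range, the mean correlation with the other arrays of the label and the 3'-minus-5' signals of the Gapdh and actin controls, passed a test of a difference between P and NP (lowest adjusted p = 0.689 in exact permutation tests, 2-sided). P 10 had the lowest mean correlation with its label, 0.966, against 0.987 to 0.990 in the other arrays labelled P. Over the 17 arrays without P 10 and NP 8, the array median rose with Th (Pearson r = 0.812, adjusted p = 0.0004, and Spearman rho = 0.85, adjusted p = 0.0005, in permutation tests over 5 measures). The Gapdh 3'-minus-5' signal, a measure of RNA quality, fell with Th (r = -0.664, adjusted p = 0.0104, rho = -0.566, adjusted p = 0.0321, by permutation). Without P 8 and NP 3, the arrays farthest from the median of Th, these r were 0.803 and -0.582. The interquartile range also rose with Th (r = 0.542, adjusted p = 0.043, rho = 0.65, adjusted p = 0.0154, by permutation, and r = 0.595 without these arrays). The actin 3'-minus-5' signal did not pass (r = -0.0372, adjusted p = 0.887, rho = 0.0931, adjusted p = 0.904, by permutation). The part of the medians and of RNA quality in the results below was not tested, and slopes with arrays centred on their medians stand in the closing section.

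The line contrast asks which genes differ between the high and the low line of the pair. No gene passed the test. With all 19 arrays, limma called 0 of 10361 genes tested (0% of them) at a Benjamini-Hochberg adjusted p under 0.05, and 135 genes had an unadjusted p under 0.05, where an even spread of p-values gives 518. Without P 10 and NP 8 limma called 0 genes (0%), with 101 at an unadjusted p under 0.05. With the Th level of each array as a covariate it called 0 genes (0%) with 19 arrays, and 302 stood at an unadjusted p under 0.05. The lowest adjusted p was 0.999 with 19 arrays. The median standard error of a gene's difference was 0.0789 with 19 arrays and 0.0725 with 17. It depends on the spread within labels as well as on the number of arrays.

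**Figure D2:**
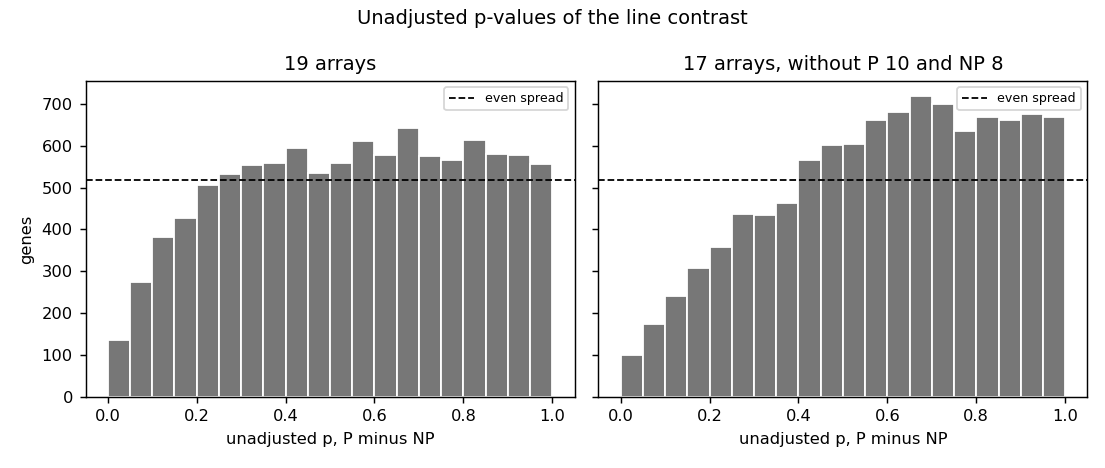
Number of genes (y axis) by unadjusted limma p-value of the P minus NP difference (x axis, bins of 0.05) with 19 arrays on the left and 17 arrays on the right, and a dashed line at the 518 genes per bin that an even spread gives. The lowest bin holds 135 genes on the left and 101 on the right, below the dashed line in both.

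Th itself was 13.2 ± 1.918 in P (SD, n = 9) and 12.9 ± 2.107 in NP (SD, n = 10), a difference of 0.30 (exact permutation p = 0.746, 2-sided, 92378 arrangements). Without both arrays it was 13.8 ± 1.215 (n = 8) and 13.5 ± 1.385 (n = 9), again a difference of 0.30. Both arrays were left out for their low Th, so the second difference is a description. The difference in Th was smaller than its standard error by limma in both fits, 0.87 with 19 arrays and 0.59 with 17. Slc6a3, the dopamine reuptake transporter, differed by 0.25 with a standard error of 0.87 on the 19 arrays and by 0.29 with a standard error of 0.53 on the 17. Aldh1a1, an aldehyde dehydrogenase of a subset of dopamine neurons, had a difference of -0.30 on the 19 arrays and -0.15 on the 17, with adjusted p of 0.999 and 1 by limma. Grm2, a metabotropic glutamate receptor, was below the filter on dim genes, with signals from 5.56 to 6.61 in P and from 5.65 to 6.76 in NP, which overlapped.

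As a list, 15 tested dopamine neuron genes other than Th had a median P minus NP difference of 0.25 on the 19 arrays and 0.26 on the 17, against -0.01 and 0.00 over all genes, and none had an unadjusted p under 0.05. The 16 endothelium and pericyte genes had a median of -0.12 on the 19 arrays, and 4 of them had an unadjusted p under 0.05 that did not pass the adjustment. On the 17 arrays their median was -0.075 and none had an unadjusted p under 0.05. The genes with the smallest unadjusted p in limma were Ccdc134 (-0.15 ± 0.046 SE, P minus NP), the synaptic adhesion protein Slitrk3 (0.23 ± 0.07) and the ADP-ribosyltransferase Parp14 (-0.15 ± 0.0464), each with an adjusted p of 0.999. They were picked by their values, and their unadjusted p lay between 0.00319 and 0.00383.

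The genes did differ among arrays within a label. The median SD of a gene within a label was 0.175 in P/NP and 0.152 without P 10 and NP 8, against 0.1 to 0.136 in the other pairs. An SD of at least 1 was reached by 135 genes, or 81 without both arrays, against 4 to 15 in the other pairs. Part of this spread followed Th, and how large a part was not computed. The slope of each gene on Th was fitted with the label as a term over the 17 arrays without P 10 and NP 8, in log2 change per log2 unit of Th. Limma called 5506 of 10360 genes (53.1%), of which 2740 rose with Th (26.4%) and 2766 fell (26.7%). The median size of a slope was 0.06, and 90 called genes had a slope of at least 1.5-fold per doubling of Th. With P 10 and NP 8 in the fit, 1790 genes were called and 1418 of them were also called without both. Leaving out NP 9 and NP 10 too gave 4100, of which 4049 were shared. With Spp1, a gene of the red nucleus list described below, as a further covariate, 2213 genes were called, of which 2159 were shared. The last pair of settings was chosen after seeing the data.

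Among the dopamine neuron genes, 13 of 15 tested rose with Th, 1 fell and 1 did not pass, with a median slope of 0.84 against 0.00 over all genes, of which 26.4% rose and 26.7% fell. Slc6a3 ran from 11.42 in P 8 through a median of 13.74 to 14.76 in P 2, with a slope of 0.88 ± 0.033 (SE, adjusted p = 9.88e-12 by limma). Slc18a2, the vesicular monoamine transporter, ran from 10.11 in P 8 through 12.82 to 14.17 in P 2, with a slope of 1.07 ± 0.0454 (adjusted p = 6.37e-11 by limma). Both put the same arrays at the ends as Th did, and their levels in the arrays labelled P and NP overlapped. Ddc, which makes dopamine from L-DOPA, had a slope of 0.84 ± 0.0684, and Gch1, which makes the cofactor of tyrosine hydroxylase, had one of 1.16 ± 0.0601. The autoreceptor Drd2 ran from 8.69 to 11.69 with a slope of 0.75 ± 0.0478. Nr4a2, a transcription factor that dopamine neurons need to develop, ran from 8.12 to 11.33 with a slope of 0.87 ± 0.0462.

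**Figure D3:**
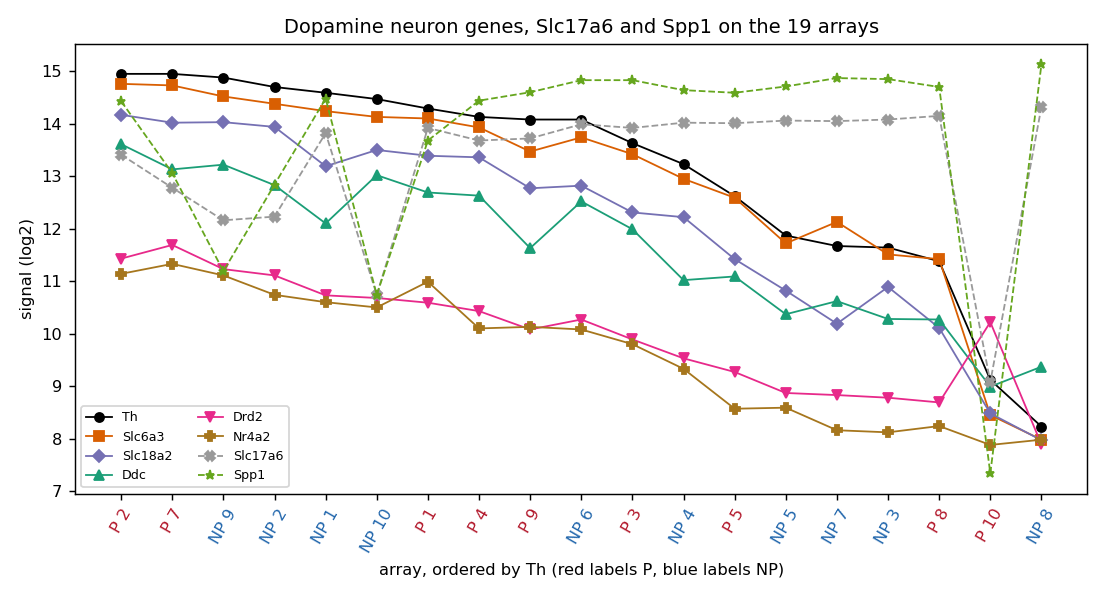
Log2 signal (y axis) of 6 dopamine neuron genes (solid lines) and of Slc17a6 and Spp1 (dashed lines) on the 19 arrays, ordered by Th (x axis, red names for arrays labelled P and blue for NP). The solid lines fall together from P 2 to P 8, while Spp1 and Slc17a6 are low on NP 9, NP 10 and P 10 and high on NP 8.

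The remaining members of that list were graded. The growth factor receptor Ret had a slope of 0.42 ± 0.038, the potassium channel Kcnj6 one of 0.51 ± 0.0422, the nicotinic subunit Chrna6 one of 0.57 ± 0.0585 and the neurotensin receptor Ntsr1 one of 0.84 ± 0.0563, all past the threshold by limma. Foxa2, a transcription factor of the midbrain floor plate, had a slope of -0.01 ± 0.0563 (adjusted p = 0.855 by limma) and a level between 9.74 and 10.86 on the 17 arrays. Sncg, gamma-synuclein, fell with Th, with a slope of -0.44 ± 0.135 (adjusted p = 0.0119 by limma). Its slope was -0.25 without NP 9 and NP 10 as well, -0.05 with Spp1 as a covariate (adjusted p = 0.418) and 0.09 with all 19 arrays (adjusted p = 0.743). The other 13 called genes of the list rose past the threshold under each of these settings.

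Taken array by array, 16 of 18 dopamine neuron genes correlated with Th over the 17 arrays, 15 of them positively, after adjustment over the 18. The median Pearson r over the list was 0.95, and 0.929 without P 8 and NP 3. For Slc6a3 Pearson r was 0.989 and Spearman rho 0.995, and r was 0.983 without those arrays. Each had an adjusted permutation p of 1e-05, the smallest that 100000 resamples can give. For Pitx3, a transcription factor of dopamine neurons whose signal of 5.14 to 6.76 was below the filter, r was 0.834 (adjusted permutation p = 9e-05) and rho 0.934 (adjusted permutation p = 1e-05). For Foxa1 r was 0.073 (adjusted permutation p = 0.83), and for Foxa2 it was -0.044 (adjusted permutation p = 0.874).

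Over all genes tested, those most like Th within labels were Slc10a4, Cck, Fgf13, Slc6a3, Slc18a2, Cadps2, Gch1, Nr4a2, Bnc2 and Tmem255a, with Pearson r between 0.976 and 0.993 over the 17 arrays. Slc10a4, a vesicle protein of monoamine and cholinergic neurons, ran from 8.59 to 12.70 with a slope of 1.10 ± 0.032. Cck, the peptide cholecystokinin, ran from 10.24 to 14.04 with a slope of 1.05 ± 0.0372. Both rose by about as many log2 units as Th. The sodium channel regulator Fgf13 had a slope of 0.73 ± 0.0268 and the vesicle priming protein Cadps2 one of 0.87 ± 0.0449. The genes most opposite to Th were Foxo3, Rbpj, Wasl, Zfp267 and Dyrk3, with r between -0.937 and -0.918 and shallow slopes between -0.16 and -0.08.

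Neuropeptide genes were another group with steep slopes. Of 14 tested, 10 rose with Th and none fell, where 26.4% of all genes rose and 26.7% fell. Their median slope was 0.56 (all genes 0.00). The count was 8 without NP 9 and NP 10 as well and 6 with all 19 arrays, where 1946 and 1190 of all 10360 genes rose. Neurotensin, Nts, ran from 5.64 in NP 7 through a median of 10.37 to 11.92 in NP 9, with a slope of 1.18 ± 0.129 (adjusted p = 5.22e-06 by limma). Vip ran from 5.94 to 10.72 with a slope of 1.04 ± 0.198, and Grp, gastrin-releasing peptide, from 5.83 to 10.04 with a slope of 1.01 ± 0.105. For Penk, Npy, Sst and Cartpt the slopes were 0.21, 0.12, 0.10 and -0.01 and did not pass. Other genes with steep slopes were the sodium channel Scn9a (1.14 ± 0.072), the tachykinin receptor Tacr3 (1.08 ± 0.0795), the bone morphogenetic protein Bmp5 (1.02 ± 0.0624), the membrane protein Dlk1 (1.02 ± 0.0671), and the nuclear proteins Bnc2 (1.12 ± 0.0594) and Mab21l1 (1.11 ± 0.0614).

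Nicotinic acetylcholine receptor subunits, through which nicotine acts on dopamine neurons, rose in 4 of 4 tested, where 26.4% of all genes rose. Their median slope was 0.77. Chrna3 had a slope of 0.96 ± 0.0624 and ran from 5.2 to 9.17. Chrna5 ran from 5.16 in NP 3 through a median of 7.78 to 11.49 in P 2, with a slope of 1.01 ± 0.352 (adjusted p = 0.0243 by limma). Its slope did not pass without NP 9 and NP 10 as well (0.70, adjusted p = 0.122 by limma). Chrna5 was also among the genes that varied most once label and Th were taken out, with a residual SD of 1.95. Seen after its values were known, its levels in P 1 to P 5 (8.49 to 11.49) lay above those in NP 1 to NP 5 (5.16 to 7.08), while P 7 to P 10 (5.54 to 7.19) did not lie above NP 6 to NP 10 (5.74 to 11.41).

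The enzymes of monoamine breakdown rose with Th in 4 of 4 tested, with a median slope of 0.23, where 26.4% of all genes rose. Maoa had a slope of 0.26 ± 0.0294 and Maob one of 0.28 ± 0.0504. Genes from earlier work on alcohol and the brain rose in 7 of 8 tested, and none fell, with a median slope of 0.32. They included Cck and Drd2, which other lists hold too, the stress peptide Crh (0.72 ± 0.082) and the glutathione transferase Gsta4 (0.33 ± 0.0674). With all 19 arrays 4 of these 8 passed, all rising, where 1190 of all 10360 genes rose.

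The red nucleus list fell with Th in 3 of 3 tested, with a median slope of -0.51, where 26.7% of all genes fell. Spp1, osteopontin, ran from 10.74 in NP 10 through a median of 14.59 to 14.87 in NP 7, with a slope of -0.58 ± 0.194 (adjusted p = 0.0196 by limma). Only NP 9 (11.19) and NP 10 (10.74) lay below 12 among the 17 arrays, and P 10 was lower still at 7.34. Nefh, the neurofilament heavy chain, had a slope of -0.37 ± 0.126, and Pou4f1, a transcription factor of red nucleus neurons, one of -0.51 ± 0.0994. Without NP 9 and NP 10 as well, these slopes were -0.30 (adjusted p = 0.0409), -0.18 (adjusted p = 0.0304) and -0.41 (adjusted p = 0.00286), all by limma. With all 19 arrays none passed, and the slope of Spp1 was 0.10 (adjusted p = 0.788 by limma).

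The 10 genes that fell most steeply with Th were Scn4b, P2rx6, Six4, Glra1, Ppp1r1c, Grifin, Emx2, RT1-Db1, Hapln1 and Ahnak2, with slopes from -0.68 to -0.61. The sodium channel subunit Scn4b ran from 8.66 in NP 10 to 13.23 in P 8, and the glycine receptor subunit Glra1 from 7.99 in NP 9 to 11.60 in NP 3. Scn4b was low on NP 10, NP 9, NP 2 and P 7, all of them arrays with Th above 14. Parvalbumin, Pvalb, a calcium buffer of fast-spiking neurons, had a slope of -0.58 ± 0.157, and the vesicular glutamate transporter Slc17a6 one of -0.45 ± 0.139. With Spp1 as a further covariate the slopes of Scn4b, Pvalb and Slc17a6 were -0.13, -0.13 and -0.07 and none passed (adjusted p = 0.147, 0.12 and 0.541 by limma), while that of Emx2, a homeobox gene, was -0.28 (adjusted p = 0.00303). The part of red nucleus tissue in the slopes on Th was not tested beyond these values.

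**Figure D4:**
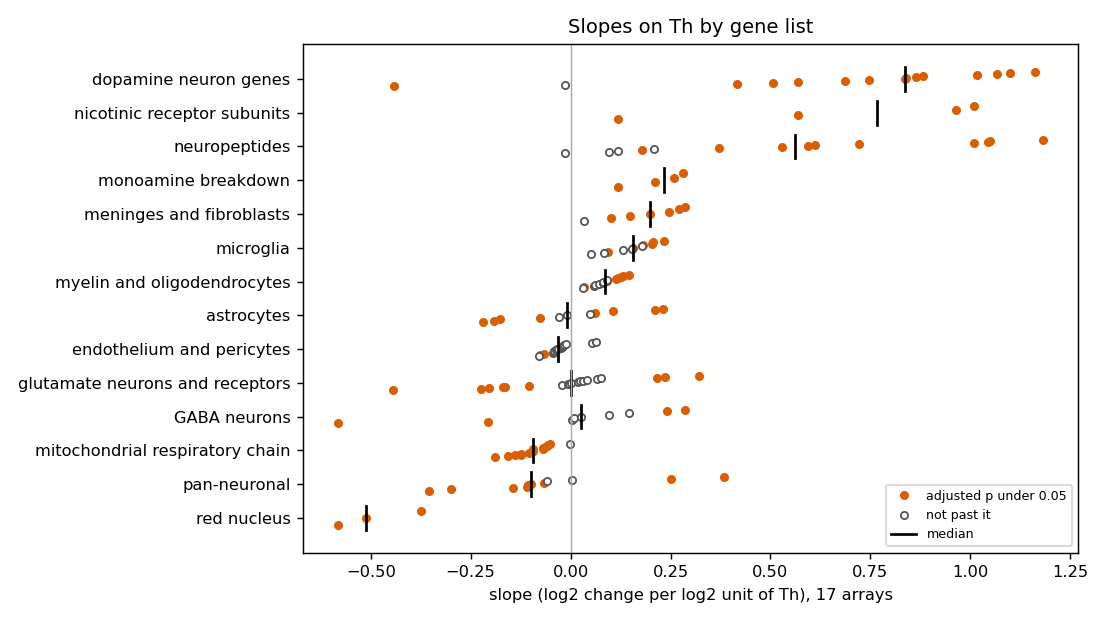
Slope on Th of each tested gene (x axis, log2 change per log2 unit of Th over 17 arrays) by gene list (y axis), with filled points for an adjusted p under 0.05 by limma, open points for the rest, and a bar at the list's median. Among the lists drawn, the medians run from -0.51 in the red nucleus list to 0.84 in the dopamine neuron list.

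Genes of other cell types moved less. Over all genes 26.4% rose and 26.7% fell. With all 19 arrays 1190 of 10360 genes rose and 600 fell, and with Spp1 as a covariate 1057 and 1156 of 10359. Of 14 myelin and oligodendrocyte genes 7 rose and none fell (median slope 0.085), with Mog, a myelin surface protein, at 0.15 ± 0.0419. Of the 14, 12 passed with all 19 arrays, all rising, and with Spp1 as a covariate none did. Of 11 microglia genes 6 rose (median 0.16), with the complement gene C1qc at 0.23 ± 0.0457, and of 7 meninges and fibroblast genes 6 rose (median 0.20), with Igf2 at 0.29 ± 0.0384. With all 19 arrays none of the microglia genes and 2 of the meninges genes passed, and with Spp1 as a covariate 2 of each, all rising. Astrocyte genes were split, with 4 rising and 4 falling of 11, and 2 of 16 endothelium and pericyte genes passed, both falling. The fit with all 19 arrays had 1 astrocyte gene rising and 1 falling, and 2 endothelium and pericyte genes passed, both rising. In the GABA neuron list 2 of 9 rose (Slc32a1 and Gad2) and 2 fell (Pvalb and the homeobox gene Lhx1), and neither Slc32a1 nor Gad2 passed without NP 9 and NP 10 as well (adjusted p = 0.105 and 0.0626 by limma).

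Nuclear genes of the mitochondrial respiratory chain fell with Th in 16 of 17 tested, with slopes from -0.19 for Cox5a to -0.05 and a median of -0.09, where 26.7% of all genes fell. The same count was 15 without NP 9 and NP 10 as well, 6 with Spp1 as a covariate and 0 with all 19 arrays. Over all genes, 2154 of 10360, 1156 of 10359 and 600 of 10360 fell in these settings. Of all genes 26.4% rose over the 17 arrays, 1057 with Spp1 as a covariate and 1190 with all 19 arrays. Pan-neuronal genes fell in 7 of 11, with the neurofilament genes Nefm (-0.36) and Nefl (-0.30) the lowest, and 2 rose, Syt1 (0.39 ± 0.0498), a calcium sensor of vesicle release, and Gap43 (0.25 ± 0.0219), a growth cone protein. The falls numbered 2 with all 19 arrays and 1 with Spp1 as a covariate. Heat shock genes fell in 8 of 15, among them Bag3 (-0.46 ± 0.107) and Hspb8 (-0.33 ± 0.0953), and rose in 3, which were Hspa5, Hsp90b1 and Dnajb4. Of the heat shock genes 1 fell and 1 rose with all 19 arrays, and with Spp1 as a covariate 5 fell and 2 rose. The 3'-minus-5' signal of the Gapdh controls moved with Th over the same arrays, and that of the actin controls did not pass, as given above.

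P 10 and NP 8 were both low in Th but differed from each other in much of the rest. All values on them are descriptions, since both were picked for their Th. Of the 200 genes lowest in each array against the other arrays of its label, out of 14217 measured, 29 were shared. The number that unrelated arrays would share was not counted. Among the 29 were Slc6a3, Th, Slc18a2, Cck, Bnc2, Gch1, Dlk1, Ddc, Chrna3, Aldh1a1, Nr4a2 and Chrna6, beside the homeobox genes En2 and Otx2 and the growth factor Bdnf. The 200 highest of each shared 2 genes, Neu2 and Dclk3. In NP 8 these lay 0.67 and 0.81 above the median of the other arrays labelled NP. The dopamine list had a median difference of -2.23 in P 10 and -2.09 in NP 8 from the median of the other arrays of their label, against -0.04 and 0.03 over all genes.

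In P 10, genes of the striatum, the forebrain target of dopamine neurons, were high. All 6 measured genes of the striatum list were at least 1 log2 unit above the median of the other arrays labelled P, with a median difference of 3.65, where 515 of all 14217 genes measured were that far above and 506 that far below. The dopamine receptor Drd1 stood at 12.01, against 6.30 to 7.56 on the other 18 arrays. The adenosine receptor Adora2a stood at 10.85 against 6.69 to 7.18, and the opioid precursor Pdyn at 13.63 against 7.78 to 9.21. The choline acetyltransferase Chat stood at 9.47 against 5.17 to 5.82, and the choline transporter Slc5a7 at 11.40 against 5.16 to 7.84. No other array reached these levels. The mean signal of the 6 striatum genes was 11.8 in P 10 and 8.03 in NP 8, against 7.90 to 8.46 on the other 17 arrays, and that of 6 cholinergic and oculomotor genes was 8.19 and 6.66, against 6.06 to 6.79. In P 10, 4 of the latter 6 were at least 1 above the median of the other arrays labelled P. Another member, Prph, went the other way, with a difference of -4.96, and that of Phox2a was -0.09. Drd2, which striatal neurons express too, stood at 10.22 in P 10, close to its median of 10.17 over the other 18 arrays, whereas Slc6a3 stood at 8.45 there.

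P 10 was low as well in the midbrain floor gene Foxa2, the dopamine neuron gene Ret, the glutamate neuron gene Slc17a6 and the red nucleus list. All 3 measured genes of that list were at least 1 log2 unit below the median of the other arrays labelled P. Of all 14217 genes, 506 were that far below. Foxa2 stood at 5.43 against 9.74 to 10.86 on the other arrays, Ret at 9.27 against 12.01 to 13.89, and Slc17a6 at 9.08 against 10.74 to 14.32. Spp1 stood at 7.34 against 10.74 to 15.13, and the cerebellin Cbln1 at 6.52 against 9.30 to 13.53. In all, 69 of 14217 genes were at least 2 log2 units above all the other 18 arrays in P 10 and 18 were that far below. The part of striatal tissue in the values of P 10 was not tested.

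NP 8 was not low in those genes apart from Ret. Its Ret was 12.37, which lay 0.7 below the median of the other arrays labelled NP. Its Foxa2 was 10.81 and its Slc17a6 14.32, and its Spp1 (15.13), Nefh (15.51) and Pvalb (13.71) were the highest of the 19 arrays. The striatum list had a median difference of -0.08 there. Low in NP 8 were Th (8.23), Slc6a3 (7.98), Slc18a2 (7.97), Nts (5.07 against 5.64 to 11.92 elsewhere), Cck (7.81 against 10.10 to 14.04) and Cadps2 (7.42 against 9.64 to 12.97). Of 9 measured GABA neuron genes, 3 lay at least 1 below the median of the other arrays labelled NP and 0 that far above. Gad2 stood at 7.96 in NP 8 against 9.32 to 12.02 elsewhere, and Slc32a1 at 8.33 against 9.22 to 12.09. Of the 14217 genes, 14 lay at least 1 above and 202 that far below the median of the other arrays labelled NP. NP 8 also had the lowest array median, 7.77, and the lowest interquartile range, 3.65, of the 19 arrays. Ptgr1, prostaglandin reductase, was among the 8 genes highest in NP 8, at 9.28 against 6.58 to 8.44.

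**Figure D5:**
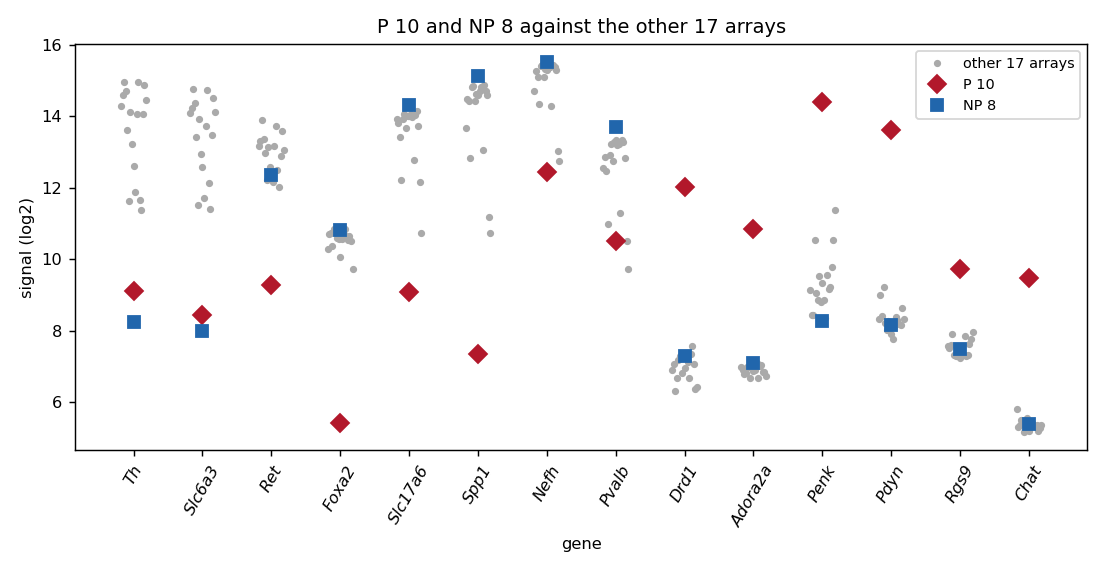
Log2 signal (y axis) of 14 genes (x axis) on P 10 (diamonds), NP 8 (squares) and the other 17 arrays (grey points). P 10 and NP 8 both lie below the other arrays for Th and Slc6a3, whereas Drd1, Adora2a, Penk, Pdyn, Rgs9 and Chat are high on P 10 only and Spp1 and Nefh are highest on NP 8.

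Other arrays stood apart as well. NP 9 and NP 10 had Th at 14.88 and 14.47. They were low in Spp1, Nefh (13.04 and 12.75), Pvalb (10.51 and 9.73) and Slc17a6 (12.16 and 10.74). These genes had negative slopes on Th, as given above. Among other arrays high in Th, NP 2 (14.70) had Spp1 at 12.84 and Slc17a6 at 12.23, and P 2 (14.95) had them at 14.43 and 13.41. The residuals of Nefh, Nefl, Nefm, Lgals1 and Tesc after label and Th followed those of Spp1 most closely, with Pearson r between 0.983 and 0.995 over the 17 arrays. NP 6 had 25 genes at least 2 log2 units above all other arrays, and these were picked after their values were seen. They included genes known from liver: Apoc3 at 12.31 (6.38 to 8.40 elsewhere), Pck1 at 10 (4.46 to 7.23), Cps1 at 11.23 (4.73 to 8.75) and Alb at 14.25 (6.84 to 11.68). The dopamine transporter Slc6a3 was 13.74 in NP 6, equal to the median of the 17 arrays. Also seen in the values, in NP 10, NP 2, P 4 and P 9 the serotonin transporter Slc6a4 lay between 8.85 and 10.75, with 5.40 to 8.20 in the rest.

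A further set of genes fell into separated levels that matched neither the labels nor Th. The interferon-induced Mx2 lay between 4.98 and 5.26 in NP 2, NP 4, P 7 and P 8 and between 7.93 and 9.86 in the other 15 arrays. Rup2 lay between 10.72 and 13.15 in NP 2, P 3, P 4 and NP 6 and between 4.14 and 6.79 in the rest. The class I histocompatibility genes RT1-T24-4, RT1-CE16 and RT1-T24-3, whose close paralogs can share probes, had gaps of 2.32, 1.61 and 1.4 between their levels. In Mx2, RT1-T24-4 and RT1-T24-3 the lower level held as many arrays labelled P as NP, in RT1-CE16 2 and 1, and in Rup2 7 and 8.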

How the data were processed

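The authors deposited log2 signals, for 31099 probe sets on 1 Affymetrix array per animal, made with RMA, a method of background correction, quantile normalization and summary of probes, which the submitters' processing notes name without a version. Which arrays were normalized together is not given in the sources used here. Columns without a sample numbered 0. Tests left out 57 control probe sets. Of the rest 20826 probe sets had 1 gene symbol in the platform annotation, 436 had several and 9780 none. For each of 14217 genes the probe set with the highest mean over the 19 arrays was used, and 10361 genes were tested whose higher label mean reached the 40th percentile of the values, 7.09. That filter removes dim genes and was varied.

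Samples were grouped by line and animal in their titles. Limma (3.58.1, in R 4.3.3, lmFit and eBayes) was fitted to this pair alone: P minus NP with 19 arrays, with 17 without P 10 and NP 8, with Th as a covariate, and the slope on Th over 17 arrays with the label as a term, leaving out Th itself. Calls were made at a Benjamini-Hochberg adjusted p under 0.05 over all genes of a fit. Single values were compared by exact permutation tests and correlations by 100000 resamples, all 2-sided. The fit was tested on simulated data. Nothing in the labels says that the animals were independent in other respects, so p-values measure the spread between these arrays only.

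The members, gene lists and tests were chosen with earlier results of these data known. Genes were named by a rule: the 12 most positive and 10 most negative called slopes, the 10 most like Th, the 8 highest and 8 lowest in P 10 and NP 8 and those shared by both, the 10 widest gaps, and up to 4 called members of each list, with Th, Slc6a3, Slc18a2, Ddc, Drd2, Nr4a2, Pitx3, Aldh1a1 and Grm2 whatever their result. Predicted symbols were passed over, and genes outside the rule (Adora2a, Chat, Slc6a4, Foxa1, Chrnb3, other list members and liver genes) were picked after their values were seen. Animal numbers shared by P and NP were checked as pairs. The deviations of same-numbered arrays correlated between -0.755 and 0.746, and 6 of 9 pairs exceeded 0.1. Of the arrays labelled P, 1 of 9 deviated most like the array of its own number. The numbers were not taken to pair the arrays, and fits with them as blocks are given below. Promoter windows came from RefSeq (GRCr8). Other steps used scipy 1.17.1, pandas 2.3.3 and numpy 2.4.6 in Python 3.11.15, with figures by matplotlib 3.10.9.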

Additional observations from a re-analysis of the deposited data

Results flagged for a closer look

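A single array lay far from the rest of its label in 27 of 238 combinations of a named gene or array measure and a label, 23 of them for P 10 and 4 for other arrays. Chance alone sets apart about 1 in 20, but P 10 was singled out for its low Th, so its share is a description. The measure is the gap to the nearest array as a share of the whole range of the label, which counts as far above 0.493 for 9 arrays and 0.466 for 10. Th was not checked, nor were the genes named for their distance in P 10 in the arrays labelled P, or those named for their distance in NP 8 in the arrays labelled NP.

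In the arrays labelled P, P 10 was the lowest, far from the rest, in these genes with their shares of the range: Ahnak2 (0.505), Chrna4 (0.666), Gjb6 (0.63), Grifin (0.628), Hspa1a (0.554), Lhx1 (0.516), Nefh (0.621) and Nefl (0.728). The same held for Nefm (0.688), Ntng1 (0.614), P2rx6 (0.54), Ret (0.593), Rora (0.703) and Slc17a6 (0.73). The neurofilament genes and Slc17a6 among them were also low on NP 9 and NP 10, which this measure did not set apart for these genes. P 10 was the highest in Gabra2 (0.765), Gabrb1 (0.501), Gad2 (0.531), Gria2 (0.622), Lamp5 (0.585), Prkcd (0.561), Rgs9 (0.752) and Slc32a1 (0.503). Its mean correlation with the other arrays labelled P was the lowest, with a gap of 0.839 of the range.

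In the arrays labelled NP, NP 10 was the lowest in Foxa2 (0.579), and NP 2 the lowest in RT1-CE16 (0.706) and Flt1 (0.523) and the highest in Foxa1 (0.507). The Foxa1 signal was below the filter on dim genes.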

How the results depend on the processing

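The line contrast called 0 genes under each alternative run: no filter or a filter at the 60th percentile (8.59), quantile normalization, centred arrays, other choices of probe sets, array weights, a robust prior with an intensity trend, the 1.5-fold threshold, all 91 arrays in 1 fit, each array left out, and, chosen after seeing the data, leaving out P 10, NP 8, NP 9 and NP 10. Genes at an unadjusted p under 0.05 numbered 83 to 271 with an array left out, 669 with all 91 arrays and 2480 with array weights. Fitted with the animal number as a replicate block, which leaves out arrays without a partner, the contrast called 0 genes (159 unadjusted without P 10 and NP 8) and the slope on Th 229, of which 228 were among the 5506. Only 1 of 9 arrays labelled P deviated most like its own number.

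The slope on Th called 4632 to 5779 genes with an array left out, 1790 with all 19 arrays and 2213 with Spp1 as a further covariate, chosen after seeing the data, and the cause of these differences was not tested. Of 1561 slopes of 107 named genes over the alternatives, 1341 kept their direction and side of the threshold, 208 lost the call and 12 reversed. With all 19 arrays the slopes that reversed were Spp1 0.0993, Slc17a6 0.0364, Cbln1 0.0338, Prph 0.0278, Lhx1 0.0481, Rora 0.0043, Abcc9 0.0145, Prkcd -0.0491, Rgs9 -0.0765 and Gabra2 -0.0486, and with the Spp1 covariate Nefh 0.0026 and Nefl 0.0142. Replicate block, all 19 arrays and the Spp1 covariate accounted for 82, 50 and 43 of the lost calls. Centred arrays called 5476 genes, 5264 of them shared. Dim genes such as Grm2 and Pitx3 have no test, and the number of arrays and the spread within labels limit the precision.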

Other observations

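Lists of neighbouring regions and other systems gave small or mixed slopes on Th over the 17 arrays, where 26.4% of all genes rose and 26.7% fell. Of 6 thalamus genes 3 rose and 2 fell (median 0.02), of 6 forebrain cortex genes 1 rose and 3 fell (median -0.09), and of 6 striatum genes 1 rose and 1 fell (median -0.02). Neurod6, a transcription factor placed in the forebrain cortex list, was the steepest of these, at 0.78 ± 0.0684 (limma, adjusted p = 4.59e-07). It ran from 6.29 in NP 5 to 9.43 in P 7, and it was among the 29 genes low in both P 10 and NP 8. Of the thalamus list Calb2, calretinin, rose with a slope of 0.75 ± 0.0612 and a level from 10.44 to 13.23. Of 3 serotonin neuron genes the shared enzymes Gch1 and Maob rose, while Slc6a4 did not pass (0.44, adjusted p = 0.2 by limma). Of 19 glutamate neuron and receptor genes 3 rose and 6 fell, and of 7 GABA-A receptor subunits 3 rose, Gabra4 (0.63), Gabrb1 (0.23) and Gabra2 (0.15), and 3 fell, among them Gabrb2 (-0.21).

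Antigen presentation and interferon genes rose in 3 of 17 and fell in 1, RT1-Db1 (-0.63 ± 0.182), where 26.4% of all genes rose and 26.7% fell. The class II gene RT1-Db1 ran from 5.64 in NP 6 to 9.45 in NP 3. Of 7 immediate early genes 2 fell, Dusp1 (-0.26) and Junb (-0.12), and none rose. The interpeduncular list had 2 tested genes, of which the nicotinic subunit Chrna3 rose, as given above, and the homeobox gene Nkx2-2 had a slope of 0.09 that did not pass (adjusted p = 0.0803 by limma).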
